A study of Mus musculus with 54 samples.

Results

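B2m, H2-K1, H2-D1, Tap1, Tap2 and Tapbp make up the set described here, chosen by name as genes of class I antigen presentation and not by their values. They are 6 of the 19290 genes listed in at least 1 10x library of the series and of the 32563 listed in at least 1 bulk library. Major histocompatibility complex (MHC) class I molecules display peptides made inside the cell to cytotoxic T cells, and nearly all nucleated cells carry them. Each molecule is a heavy chain paired with an invariant light chain. H2-K1 and H2-D1 encode classical heavy chains of the mouse, and B2m encodes the light chain, beta-2 microglobulin, which is filtered by the glomerulus and taken up by the proximal tubule. Tap1 and Tap2 encode the subunits of the transporter that moves peptides into the endoplasmic reticulum, and Tapbp encodes tapasin, which holds empty class I molecules at that transporter.

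The series held 54 libraries from adult whole mouse kidney in 18 groups of 3, each library from a kidney of another mouse within its group: 27 of single cells, 12 of single nuclei and 15 of bulk RNA. C57BL/6J males of the AFAPIL.1DEL line, 19 weeks old and from 1 litter, gave suspensions dissociated at 37 °C (warm) or with a B. licheniformis protease on ice (cold), each profiled fresh, cryopreserved and methanol-fixed on the 10x platform with version 2 chemistry, and fresh in bulk. Balb/c males, 18 weeks old and from 1 litter, gave fresh cold-dissociated cells and sorted nuclei washed 3 times at 500 g with version 2 chemistry, and intact kidney in bulk. Wild type Balb/c female ex-breeders, 15 weeks old, gave fresh and cryopreserved cold-dissociated cells and 3 nuclei preparations with version 3 chemistry, and intact kidney and cold suspension in bulk. The 3 experiments were run apart in time and differed in age and, for the females, in sex and chemistry, so strain cannot be told apart from them.

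Libraries of cells held 983522 to 27869324 unique molecular identifiers (UMIs), the counts of single captured transcripts, over 77656 barcodes in all, nuclei 7629138 to 35170947 over 98303, and bulk libraries 2326998 to 31093949 reads in genes. The median UMI count per barcode was 1192 to 1525 in fresh cold C57BL/6J libraries, 1243 to 1542 in fresh warm ones, 343 to 688 in Balb/c male cells and 2293 to 2991 in Balb/c female cells. No pair of libraries shared more than 2.05% of the barcodes of the smaller. Barcodes were clustered without the 6 genes and named from fixed markers ("-like"). Levels in 10x data are counts per 1000000 (CPM) of the non-mitochondrial UMIs of the class in a library, and bulk levels CPM of all reads in genes, given for the 3 libraries of a group in the order of their replicate numbers.

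B2m lies on chromosome 2 of GRCm38, from 122147686 to 122153083 on the plus strand, and the other members lie on chromosome 17. H2-K1 spans 33996017 to 34000347 on the minus strand, Tapbp 33915899 to 33929292, Tap1 34187553 to 34197225, Tap2 34203527 to 34216321 and H2-D1 35262730 to 35267499, the last 4 on the plus strand. Class I promoters carry binding sites for NF-kappaB and for interferon regulatory factors. The windows of 250 bases before the start site are shown for the light chain and both heavy chains because the warm and cold comparison below gives each of them a separate value. They come from RefSeq on GRCm38.p6, which held a window for 5 of the 6 genes, all but Tap2. RefSeq starts can differ from the ends of the gene spans above, which come from another annotation: the H2-D1 window lies inside the H2-D1 span, and the Tapbp window inside the Tapbp span. Capitals mark an interferon-stimulated response element core (GAAA, any 2 bases, GAAA) in B2m and a kB site, searched as the 10 letters shown in capitals, in H2-K1 and H2-D1, each written 5′ to 3′ on the gene's strand.
B2m, chr2:122147437-122147686, plus strand: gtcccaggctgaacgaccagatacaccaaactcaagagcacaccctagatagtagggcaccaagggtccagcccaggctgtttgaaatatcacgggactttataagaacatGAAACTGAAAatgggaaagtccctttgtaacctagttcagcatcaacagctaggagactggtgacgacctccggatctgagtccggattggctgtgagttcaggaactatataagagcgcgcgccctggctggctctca
H2-K1, chr17:34000348-34000597, minus strand: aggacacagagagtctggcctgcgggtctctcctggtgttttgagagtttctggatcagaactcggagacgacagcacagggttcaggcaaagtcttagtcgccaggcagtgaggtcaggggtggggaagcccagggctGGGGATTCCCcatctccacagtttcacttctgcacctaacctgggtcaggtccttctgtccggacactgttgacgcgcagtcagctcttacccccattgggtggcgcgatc
H2-D1, chr17:35262844-35263093, plus strand: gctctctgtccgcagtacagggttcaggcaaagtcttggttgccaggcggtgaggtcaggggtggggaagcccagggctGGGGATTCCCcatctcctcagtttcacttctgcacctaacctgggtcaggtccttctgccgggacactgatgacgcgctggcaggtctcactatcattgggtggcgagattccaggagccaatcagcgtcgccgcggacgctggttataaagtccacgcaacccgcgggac

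The kB site stood 111 bases before the RefSeq start in this H2-K1 window and 171 bases before it in H2-D1, inside a run of 47 identical bases, the longest that both windows share. On either strand the same letters occurred in 28 of 32851 promoter windows of this length (0.0852%). The response element core stood 139 bases before the B2m start and occurred in 978 windows (2.98%). Neither string was found in the Tap1 and Tapbp windows, and the matches overlapped no other motif searched (CCAAT, in 33.8% of windows, and TATAAA, in 12.4%). These are matches of letters and not measured binding sites. Variants of either element that differ from these letters were not searched, so a window without a mark can still hold them.

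Across cell types of the fresh cold C57BL/6J kidney, the heavy and light chains were highest in endothelial-like and immune classes and lower in the epithelial and mural-like classes. B2m in endothelial-like cells was 5304, 3232 and 3417 CPM (mean 3984 ± 1146 SD, n = 3). In macrophage-like cells it was 4940, 3308 and 2613 CPM, and in proximal tubule-like cells 292, 197 and 170 CPM (220 ± 64.0). Every endothelial-like library was above every proximal tubule-like library, and replicate 1 was the highest of the 3 in all 3 of these classes. T cell-like cells averaged 3931 CPM of B2m and dendritic-like cells 2089 ± 75.8 CPM, and B cell-like cells were the lowest of the 7 endothelial-like and immune classes at 1793 CPM. Descending loop-like cells (952 CPM) led the other 9 classes, which ran down through principal cell-like (246 CPM), podocyte-like (206 ± 45.6 CPM) and ascending loop-like cells (136 CPM) to connecting tubule-like cells (85.0 CPM). Endothelial-like, T cell-like and macrophage-like cells overlapped one another in B2m, as did podocyte-like and proximal tubule-like cells.

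H2-D1 was 5660, 3523 and 3577 CPM in endothelial-like cells (4254 ± 1218) and 143, 86.2 and 83.1 CPM in proximal tubule-like cells (104 ± 33.7). Podocyte-like cells, the filtration epithelium of the glomerulus, held 1117, 985 and 889 CPM of H2-D1 (997 ± 114). That put the podocyte-like class above each of the other epithelial classes in mean H2-D1, while its B2m was in the range of the tubule. H2-K1 had a different leading class: it was highest in natural killer-like cells, at 2371 and 2251 CPM in the 2 libraries with at least 10 such barcodes, and in T cell-like cells at 2482, 1834 and 1775 CPM. Endothelial-like cells held 1315, 1172 and 1124 CPM of H2-K1 (1204 ± 99.6), and proximal tubule-like cells 117, 83.7 and 92.1 CPM (97.7 ± 17.5). Natural killer-like and T cell-like libraries overlapped in H2-K1, and all of them were above all endothelial-like libraries. H2-K1 and H2-D1 share sequence with each other and with other class I genes of the H2-Q and H2-T regions, so the split of reads between them is uncertain.

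Tap1 and Tap2 followed the same division of cell classes by class mean, from far fewer UMIs, and Tapbp did so except in natural killer-like cells, at 95.5 CPM below podocyte-like (153 CPM), descending loop-like (139 CPM) and principal cell-like cells (128 CPM). Tap1 in endothelial-like cells was 121, 60.3 and 59.2 CPM, from 20, 23 and 21 UMIs. In proximal tubule-like cells it was 2.73, 1.57 and 3.50 CPM from 7, 5 and 11 UMIs, and none was counted in mural-like cells. The counts behind Tap1 outside the endothelial-like and immune classes were thus small. Tap2 was 302, 178 and 178 CPM in endothelial-like cells (219 ± 71.5), 54.8 CPM in podocyte-like cells and 5.37 ± 1.09 CPM in proximal tubule-like cells. Tapbp was 483, 286 and 248 CPM in endothelial-like cells (339 ± 126), 161, 173 and 126 CPM in podocyte-like cells (153 ± 24.4) and 20.2 ± 1.32 CPM in proximal tubule-like cells. Both genes thus ran from endothelial-like through podocyte-like to proximal tubule-like cells with no overlap of libraries between these 3 classes.

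**Figure D1:**
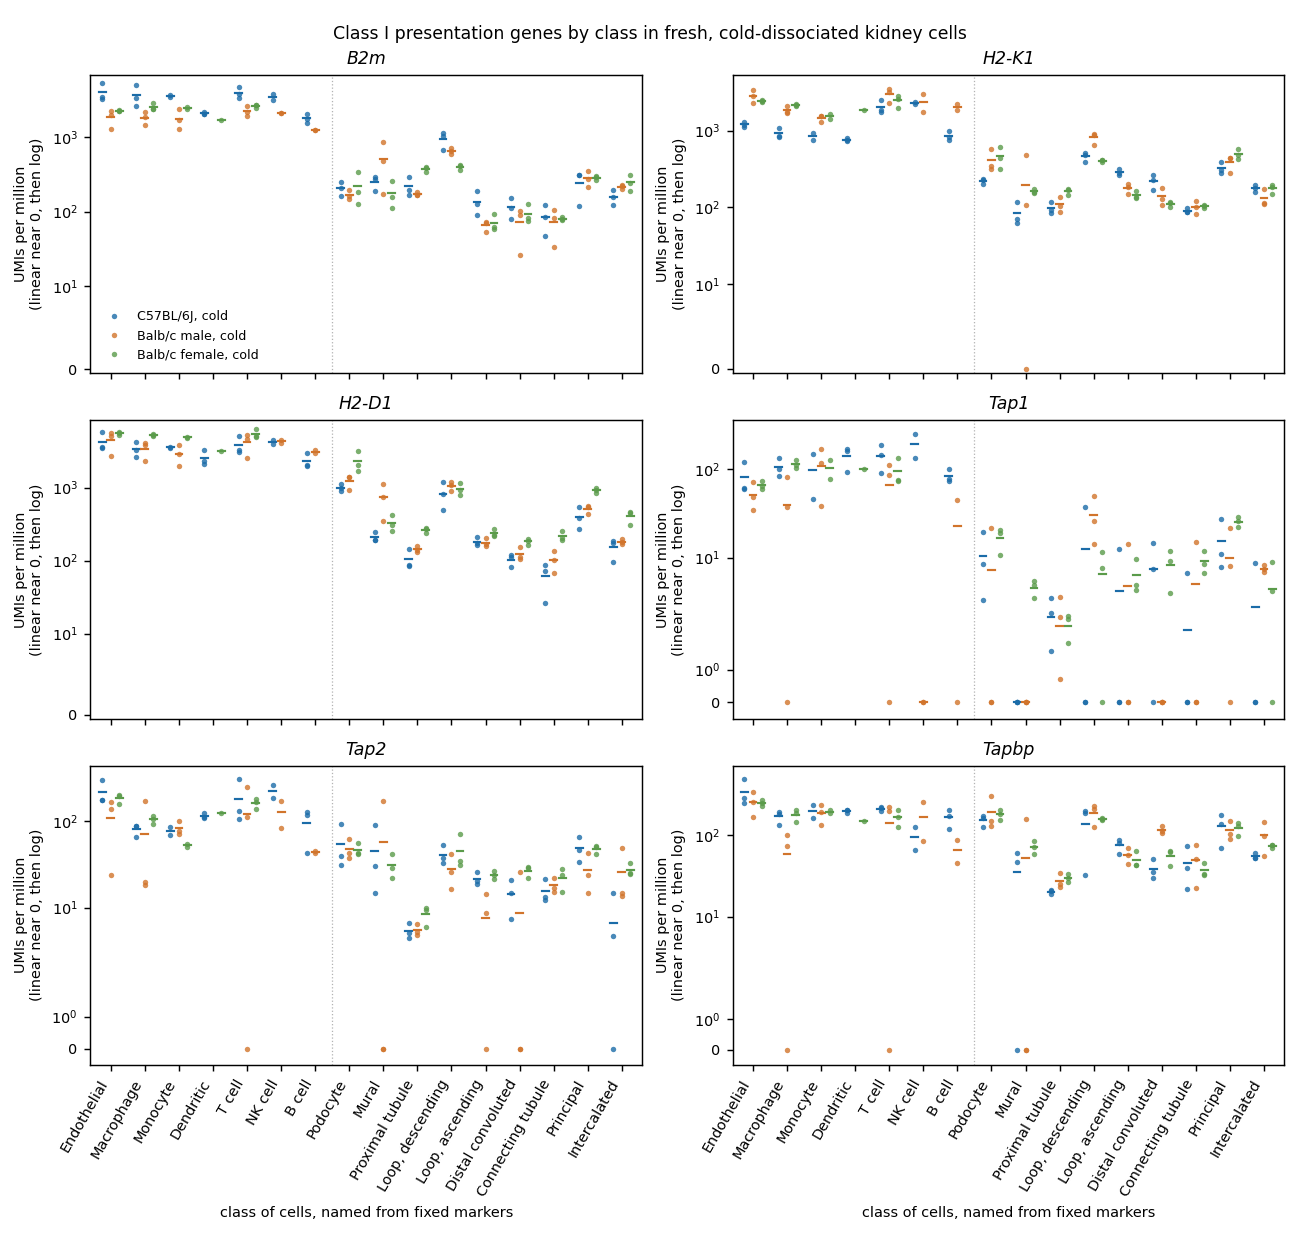
Levels of the 6 genes by cell class in fresh cold-dissociated cells of the 3 experiments, as CPM on an axis that is linear near 0 and logarithmic above, with a point per library and a line at the group mean. Endothelial-like and immune classes lie above the nephron classes for B2m, H2-K1 and H2-D1 in each experiment, and podocyte-like cells stand higher for H2-D1 than for B2m.

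Each class was compared with proximal tubule-like cells, the most numerous class, in the same libraries with edgeR's quasi-likelihood test, and a gene was called at a Benjamini-Hochberg adjusted p below 0.05 over all genes of the class. In C57BL/6J cells 69 of 90 pairs of member and class were called, 64 higher and 5 lower, beside 44.0% of all gene and class pairs. B2m in endothelial-like cells was higher by 3.81 on the log2 scale (SE 0.18, edgeR adjusted p = 4.048e-44), H2-D1 by 4.99 (SE 0.18), Tap2 by 4.83, Tap1 by 4.30, Tapbp by 3.61 and H2-K1 by 3.27 (SE 0.16). H2-K1 thus had the smallest of these 6 differences. Macrophage-like cells were higher by 4.18 for B2m, 5.17 for H2-D1 and 5.28 for Tap1. Descending loop-like cells were higher by 1.56 for B2m and 2.46 for H2-D1, and no other class outside the endothelial-like and immune ones was called higher for B2m.

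B2m was lower than in proximal tubule-like cells in 4 classes. The log2 differences were −1.65 in connecting tubule-like cells (edgeR adjusted p = 7.903e-07), −1.14 in distal convoluted tubule-like cells, −1.04 in ascending loop-like cells (edgeR adjusted p = 0.000325) and −0.81 in intercalated-like cells (edgeR adjusted p = 0.001991). H2-K1 went the other way in some of these: it was higher in ascending loop-like cells by 1.26 (edgeR adjusted p = 1.006e-08) and in distal convoluted tubule-like cells by 0.92. Light chain and heavy chain therefore differed in direction within the ascending loop-like class. In podocyte-like cells the B2m difference of −0.33 missed the threshold (edgeR adjusted p = 0.164), while H2-D1 was higher by 2.93 (SE 0.18, edgeR adjusted p = 1.258e-33), Tap2 by 2.70, Tapbp by 2.55 and H2-K1 by 0.86.

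The other experiments were fitted on their own libraries. In Balb/c male cells 45 of 70 pairs were called (41 higher, 4 lower) beside 38.8% of all pairs, and Tap1 was too low to be tested. In Balb/c female cells 64 of 72 were called (50 higher, 14 lower) beside 49.8%. B2m in female proximal tubule-like cells was 384, 401 and 346 CPM, and 8 female classes were called lower than it for B2m while 4 were called higher. Female podocyte-like cells held 183, 343 and 128 CPM of B2m and 2033, 3167 and 1675 CPM of H2-D1. The light chain was lower than in proximal tubule-like cells (log2 −1.28, edgeR adjusted p = 1.423e-09) and the heavy chain higher (2.63, edgeR adjusted p = 2.577e-26). Male podocyte-like cells gave −0.41 for B2m (edgeR adjusted p = 0.1925) and 2.72 for H2-D1. Over the class means, endothelial-like and immune classes (7 in C57BL/6J, 6 in Balb/c males and 4 in Balb/c females) were all above the other 9 classes for B2m, H2-K1 and H2-D1 in each experiment. In Balb/c females Tap1 and Tap2 kept this division, but Tapbp did not (T cell-like 165.7 CPM, podocyte-like 179.3). In Balb/c males none of these genes did. Tap1 was 0 CPM in natural killer-like and 29.85 in descending loop-like cells. Tap2 was 44.25 CPM in B cell-like and 57.43 in mural-like cells, and Tapbp 58.09 in macrophage-like and 193.2 in podocyte-like cells.

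Free RNA from broken cells also gives UMIs to barcodes of other types. In fresh cold C57BL/6J proximal tubule-like barcodes, the summed level of 15 endothelial markers was 0.282% to 0.444% of that in endothelial-like barcodes of the same library, and 11 macrophage markers stood at 0.21% to 0.364% of their macrophage-like level. B2m stood at 4.97% to 6.11% of its endothelial-like level, H2-K1 at 7.14% to 8.91% and H2-D1 at 2.32% to 2.53%. The 3 genes stood above the share of these markers in every library. Each marker share covers free RNA of 1 class, while the 3 genes were high in all 7 endothelial-like and immune classes. The part of free RNA in the levels of the other classes was not tested. In podocyte-like cells the endothelial markers stood at 0.462% to 0.937% and H2-D1 at 19.7% to 28%, and in ascending loop-like cells the markers stood at 0.4% to 0.864% and H2-K1 at 21.5% to 26.8%. At least 1 B2m UMI was found in 86.8% to 93.3% of endothelial-like barcodes and in 12.6% to 24.9% of proximal tubule-like barcodes per library, at median depths of 1112 to 1625 and 1140 to 1521 UMIs, and at least 1 H2-D1 UMI in 64% to 74.5% of podocyte-like barcodes.

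The balance between the chains, taken as a ratio of UMIs within a class and compared only between classes and conditions, differed between epithelia in C57BL/6J cells. H2-K1 per H2-D1 in fresh cold C57BL/6J cells was 1.65, 1.92 and 1.28 in ascending loop-like cells, 3.27, 2.07 and 1.41 in distal convoluted tubule-like cells and 0.82, 0.97 and 1.11 in proximal tubule-like cells. It was 0.18, 0.24 and 0.25 in podocyte-like cells and 0.23, 0.33 and 0.31 in endothelial-like cells. All ascending loop-like libraries were above all proximal tubule-like libraries, and these above all podocyte-like and endothelial-like libraries. In Balb/c females the ratio averaged 0.61 in both ascending loop-like and proximal tubule-like cells, 0.45 in endothelial-like cells and 0.20 in podocyte-like cells.

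B2m per summed heavy chain (H2-K1 plus H2-D1) in fresh cold C57BL/6J cells was 1.12, 1.16 and 0.97 in proximal tubule-like cells, 0.76, 0.69 and 0.73 in endothelial-like cells and 0.12, 0.17 and 0.23 in podocyte-like cells. The podocyte-like class therefore had the least light chain per heavy chain of these 3, and no library overlapped between them. The same order held in Balb/c females, at 0.89 ± 0.018 in proximal tubule-like, 0.29 ± 0.0084 in endothelial-like and 0.076 ± 0.013 in podocyte-like cells (SD, n = 3). In Balb/c males the means were 0.70, 0.26 and 0.11. Both Balb/c experiments had lower means than C57BL/6J, the males in 9 of 10 classes and the females in 10 of 10. Male libraries were all below those of C57BL/6J in 5 classes and all above them in 1, and female libraries were all below them in 6. The classes share the same libraries and are not independent. Balb/c heavy chain reads were aligned to the C57BL/6J reference, and the part of this in the ratio was not tested. With 3 libraries against 3, an exact two-sided permutation test of a single class cannot go below p = 0.1.

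**Figure D2:**
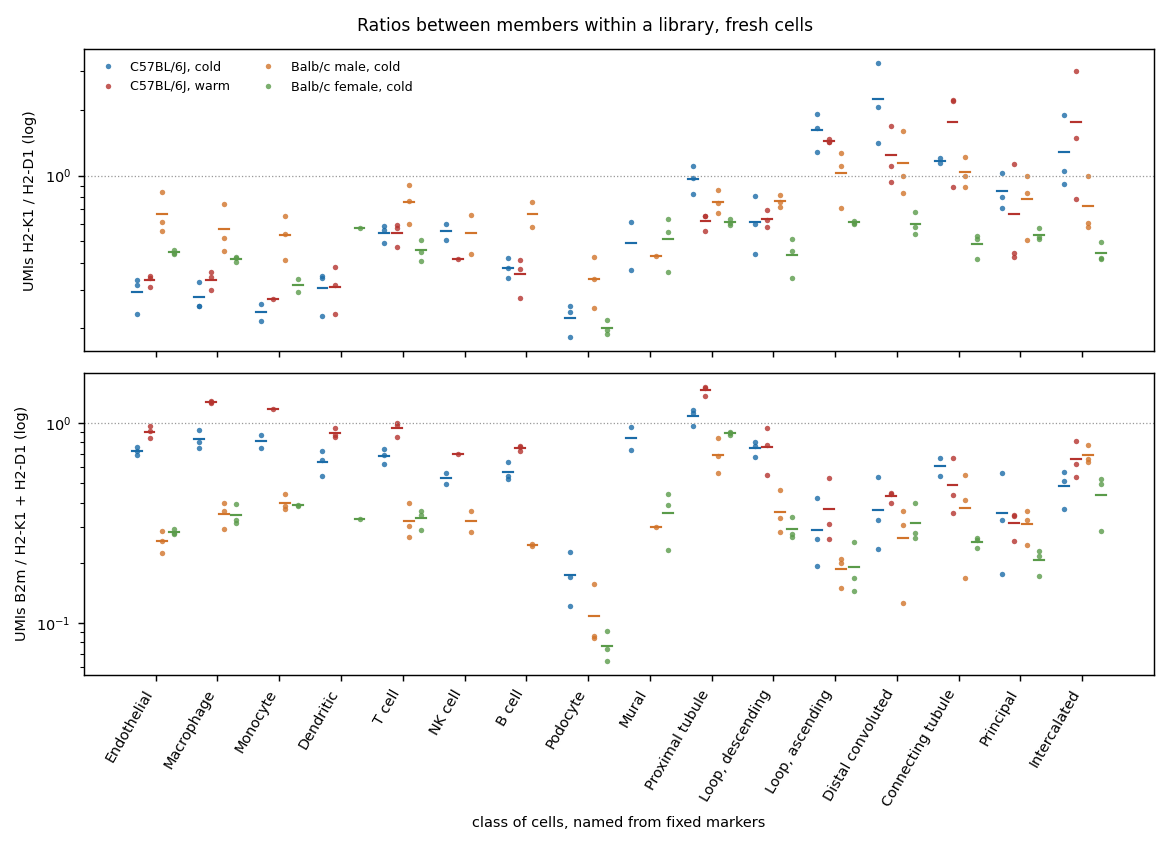
Ratio of H2-K1 to H2-D1 and of B2m to H2-K1 plus H2-D1 UMIs by cell class in fresh cells, with a point per library, a line at the group mean and log axes. Podocyte-like cells have the lowest B2m per heavy chain in each experiment, with means of 0.17 in C57BL/6J, 0.11 in Balb/c male and 0.076 in Balb/c female cells.

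Over 15 C57BL/6J classes the members moved together, with Pearson correlations of log2 levels from 0.821 (B2m with Tapbp) to 0.948 (B2m with H2-D1). These describe classes that share libraries and depth and are not independent points. Of 2981 genes compared, those whose pattern over these classes was most like the mean standardized pattern of the 6 members were Tpm3 (r = 0.966), Clic1 (0.947), Psmb8 (0.946), 2700094K13Rik (0.944) and Ppp4c (0.936). Psmb8 encodes a catalytic subunit of the immunoproteasome, which cuts proteins into peptides for class I molecules, and averaged 491 CPM in endothelial-like, 12.8 in proximal tubule-like and 13.4 in podocyte-like cells.

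Warm and cold dissociation were compared as whole protocols: they used different enzymes and handling as well as different temperatures, which cannot be told apart here. B2m was higher after warm dissociation in all 13 tested classes, all barcodes of a library counted as a class, by fitted fold change (log2 0.09 to 0.89, median 0.51), but only dendritic-like cells passed the test. These classes come from the same libraries and are not independent. How many of all genes had the same sign in every class was not counted. Their B2m was 2172, 2071 and 2024 CPM cold and 3387, 3450 and 4369 CPM warm. All warm libraries were above all cold libraries, a 1.85-fold difference (log2 0.89, SE 0.14, edgeR adjusted p = 0.001384). It was the only call among 55 pairs of member and class, where 6.95% of all gene and class pairs were called. An unadjusted p below 0.05 was found in 15 pairs, of which 7 were B2m. The share of all gene and class pairs with such a p is not given here, so this count has no background to be read against. H2-K1 was higher in 9 of 13 classes and H2-D1 in 8 of 12.

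B2m in endothelial-like cells was 6204, 5433 and 5903 CPM warm, against the cold values above, a log2 difference of 0.60 (edgeR adjusted p = 0.2208). In macrophage-like cells it was 6252, 5418 and 6224 CPM warm, a difference of 0.76 (edgeR adjusted p = 0.09369). With the number in the barcode names as a replicate block, the edgeR adjusted p was 0.03316, where 6.60% of all pairs were called. In proximal tubule-like cells B2m was 301, 236 and 323 CPM warm, a difference of 0.44 (edgeR adjusted p = 0.136). Warm libraries were above all cold libraries in the first 2 of these classes and overlapped them in the last. With 1 library left out 1 to 7 pairs were called, the 7 without replicate 1 of the cold group. The share of all gene and class pairs called in those fits is not given here. H2-K1 in proximal tubule-like cells was 79.3, 68.0 and 76.1 CPM warm, a difference of −0.33 (edgeR adjusted p = 0.1482). The clusters holding most of a class differed for macrophage-like cells (cluster 8, led by Mmp12, with 51.7% of the cold barcodes, and cluster 16, led by C1qc, with 65.4% of the warm ones) and for proximal tubule-like cells (cluster 7, with 16.3% of the cold, and cluster 4, with 15.2% of the warm barcodes), while cluster 29 held 95.5% and 87.5% of the dendritic-like barcodes.

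B2m per summed heavy chain had a higher mean after warm dissociation in 10 of 11 classes, which share the same libraries. It was 0.93, 0.80 and 0.75 in cold macrophage-like cells and 1.27, 1.29 and 1.27 in warm ones, and over all barcodes of a library it was 0.76, 0.70 and 0.70 cold and 1.01, 1.03 and 1.06 warm. Warm and cold libraries did not overlap in either. The shares of endothelial-like barcodes were 5.05% to 8.13% cold and 4.31% to 4.77% warm, and those of proximal tubule-like barcodes 58.9% to 70.2% and 70.6% to 73.8%. B2m over all barcodes was 862, 730 and 693 CPM cold and 897, 763 and 933 CPM warm, a log2 difference of 0.32 that missed the threshold (edgeR adjusted p = 0.07039), with −0.45 for Tap1 and −0.37 for Tapbp.

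**Figure D3:**
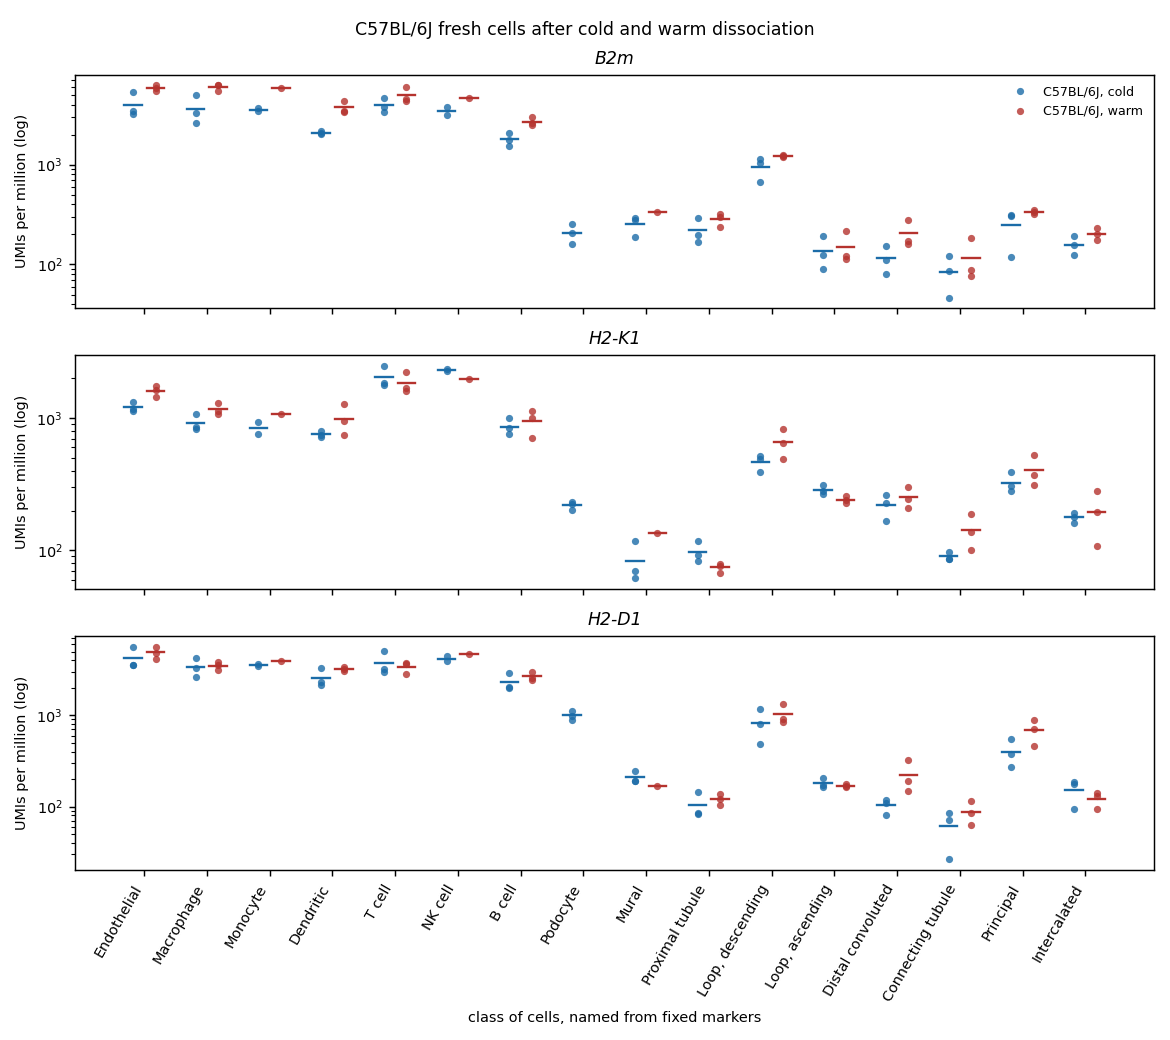
CPM of B2m, H2-K1 and H2-D1 by cell class in cold and warm fresh C57BL/6J cells, with a point per library, a line at the group mean and log axes. The 3 warm dendritic-like libraries lie between 3387 and 4369 CPM of B2m, all above the cold ones at 2024 to 2172, and classes with 1 warm library were not tested.

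Bulk libraries of the same kinds of suspension gave B2m the other sign. B2m was 145, 148 and 139 CPM cold and 137, 127 and 136 warm, a log2 difference of −0.13 (SE 0.063, edgeR adjusted p = 0.2466). H2-K1 was 198, 195 and 201 cold and 225, 215 and 218 warm, and H2-D1 203, 201 and 210 cold and 226, 214 and 217 warm. Warm libraries were above cold libraries in both heavy chains and below them in B2m, but the differences were small: 0.12 for H2-K1 (edgeR adjusted p = 0.2698) and 0.07 for H2-D1. How many of all genes were apart without overlap was not counted. None of the 6 genes was called by edgeR, DESeq2 or edgeR's exact test, none had an unadjusted p below 0.05 by the quasi-likelihood test, and 8.68% of all 14102 genes were called. Tap1 differed by −0.08, Tap2 by −0.12 and Tapbp by 0.01. In bulk, fewer cells of a type and less RNA per cell cannot be told apart.

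Per kilobase of exon, where genes can be compared with each other, cold C57BL/6J suspensions held 167 CPM of B2m, 79.4 of H2-D1, 67.4 of H2-K1, 25.8 of Tapbp, 6.30 of Tap2 and 3.46 of Tap1. The light chain was thus the most abundant member and the transporter subunits the least. The members' median log2 difference of warm from cold was −0.04, beside −0.01 over all genes tested, of which 764 rose and 460 fell.

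The other genes of the pathway were counted by fixed lists in the same bulk fit. None of 6 immunoproteasome genes and none of 4 peptide loading genes was called in bulk. Of 12 tested of 16 other class I genes, H2-Q4 (log2 0.52, edgeR adjusted p = 0.007681) and Mr1 (0.57), which presents vitamin metabolites, rose and H2-T24 (−1.02, edgeR adjusted p = 0.01132) fell. Of 9 regulators of the pathway, Irf1, a transcription factor of the interferon response, rose alone, from between 22.6 and 24.1 to between 59.6 and 81.1 CPM (log2 1.64, SE 0.12, edgeR adjusted p = 3.046e-06). Of 25 interferon-stimulated genes only the antiviral Rsad2 was called, lower by 0.46. Class II genes, which present peptides taken up from outside, went lower: 4 of 7 fell, among them their master regulator Ciita (−0.96), H2-Aa (−0.40) and the invariant chain gene Cd74 (−0.35), with a list median of −0.39. In 10x endothelial-like cells H2-Q4 was the only call among 9 tested other class I genes (1.01, edgeR adjusted p = 0.003804), where 60 genes rose and 14 fell of 4699 tested. Over all barcodes 5 of 7 class II genes, 2 of 6 immunoproteasome genes, 2 of 24 tested interferon-stimulated genes and 2 of 11 tested other class I genes fell and 1 other class I gene rose, where 948 genes rose and 853 fell of 12061. The share of B cell-like barcodes, which carry class II, was 1.77% to 3.11% cold and 0.627% to 1.33% warm, and that of dendritic-like barcodes 0.509% to 1.11% cold and 0.368% to 0.522% warm, and their part in it was not tested.

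Bulk libraries of intact kidney and cold suspension, compared in Balb/c females, gave no call for a member. B2m was 194, 219 and 224 CPM in intact kidney and 206, 226 and 233 in suspension, a log2 difference of 0.05. H2-K1 differed by 0.05, H2-D1 by 0.04, Tap2 by 0.05 and Tapbp by 0.01. Tap1 had the largest value at 0.26 (edgeR adjusted p = 0.1291) and alone had an unadjusted p below 0.05, a share not given for all genes. None of the 6 was called by edgeR, DESeq2 or edgeR's exact test, beside 20% of 16538 genes. All 7 class II genes were higher in suspension instead, among them H2-Aa (0.99), H2-Eb1 (0.95) and Cd74 (0.91), with a list median of 0.69 beside 0.00 over all genes. Of 25 interferon-stimulated genes 6 fell and 1 rose, with Gbp3 falling from between 77.3 and 97.8 to between 15.3 and 18.6 CPM (−2.42) and Ifi27l2a (−0.77) and Gbp7 (−0.62) among the others, and of 16 other class I genes H2-T23 (−0.77) and H2-T22 (−0.28) fell. Intact kidney of Balb/c males, sequenced at 2326998 to 7879117 reads, held 100, 70.9 and 128 CPM of B2m, a wider spread than in the other bulk groups.

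**Figure D4:**
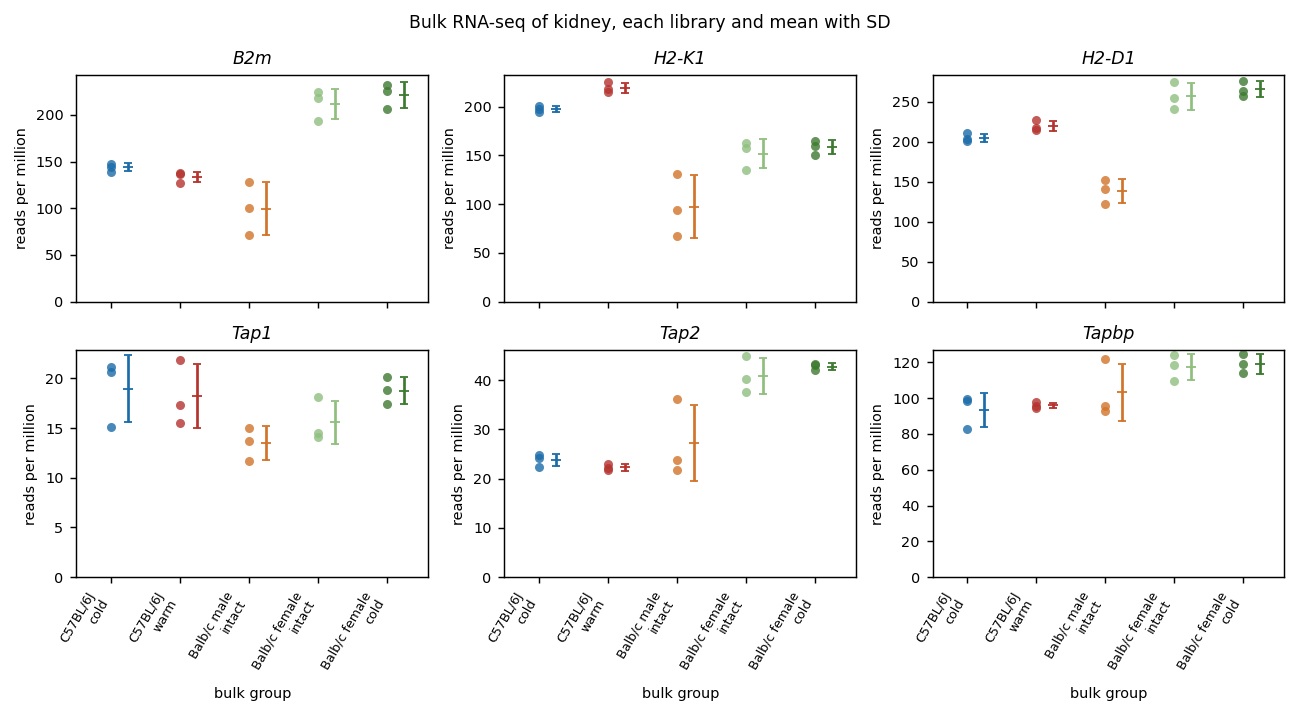
CPM of the 6 genes in bulk libraries, with a point per library and the mean with its SD beside the points, on axes that start at 0. Warm and cold C57BL/6J suspensions lie close together for each gene, as do intact kidney and cold suspension of Balb/c females.

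Stored and fresh suspensions were compared to see what storage does to the profiles, first over all barcodes of a library. After cryopreservation of cold C57BL/6J cells, B2m over all barcodes was 3488, 3064 and 3789 CPM against 862, 730 and 693 CPM fresh (log2 2.00, edgeR adjusted p = 3.591e-05). All 6 members rose in this sum: H2-D1 by 1.44, Tap1 by 1.32, H2-K1 by 1.28, Tapbp by 1.10 and Tap2 by 0.96, beside a median of −0.13 over all genes. The share of proximal tubule-like barcodes went from between 58.9% and 70.2% fresh to between 0.123% and 0.705%, that of endothelial-like barcodes from between 5.05% and 8.13% to between 24.1% and 26.5%, and that of macrophage-like barcodes from between 5.09% and 5.69% to between 14.7% and 18.1%. The part of these shares in the rise was not tested. In endothelial-like cells B2m differed by 0.38 (edgeR adjusted p = 0.3236), H2-K1 by −0.04 and H2-D1 by −0.22.

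Within classes, 4 other pairs were called after cryopreservation of cold cells. B2m in macrophage-like cells was 6080, 6142 and 6472 CPM, above all fresh libraries (log2 0.92, edgeR adjusted p = 0.0006799), with cluster 8 holding 85% of these barcodes against 51.7% fresh. B2m rose by 0.70 in B cell-like and by 0.55 in dendritic-like cells, and H2-D1 rose by 0.95 in intercalated-like cells. The last of these held in only 4 of its 12 other settings and was lost with the replicate block (edgeR adjusted p = 0.05135), where B2m was called in intercalated-like (0.93) and monocyte-like cells (0.61) beside 19.1% of all pairs. Cluster 20 held 73.5% of the fresh intercalated-like barcodes and cluster 31 held 66% of the cryopreserved ones. In all, 10 of 64 pairs were called, all higher, beside 19.3% of all gene and class pairs.

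After cryopreservation of warm cells 13 of 47 pairs were called, all higher, beside 27.6% of all pairs. All 6 members rose over all barcodes (B2m by 1.60, Tap1 by 1.55, H2-D1 by 1.53, H2-K1 by 1.42, Tap2 by 1.27 and Tapbp by 1.19), while the proximal tubule-like share went from between 70.6% and 73.8% to between 0.558% and 0.651%. The other calls lay in the distal nephron and collecting duct. B2m rose by 2.08 in distal convoluted tubule-like, 1.50 in intercalated-like, 1.06 in principal cell-like and 1.00 in ascending loop-like cells, H2-D1 by 1.58 in intercalated-like and 0.82 in ascending loop-like cells, and H2-K1 by 1.29 in intercalated-like cells. The leading clusters of some of these classes differed: cluster 20 held 89.1% of the fresh intercalated-like barcodes and cluster 31 held 50.6% of the cryopreserved ones, and cluster 28 held 60.7% of the fresh principal cell-like barcodes and cluster 25 held 82% of the cryopreserved ones. Cluster 15 led the ascending loop-like class in both (64.5% and 63.3%), and the distal convoluted tubule-like class was 1 cluster. With the replicate block, H2-K1 in principal cell-like cells was also called (0.72, edgeR adjusted p = 0.03597), beside 24.2% of all pairs. In endothelial-like cells B2m differed by 0.09, under the threshold. None of 56 tests of the difference between the warm and the cold response was called by edgeR, beside 2.26% of all gene and class pairs in that test, and 3 had an unadjusted p below 0.05, a share not given for all pairs. These tests were run without the replicate block.

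In Balb/c females 15 of 74 pairs were called after cryopreservation, all higher, beside 14.4% of all pairs. The 6 members rose over all barcodes by 0.83 to 1.30, with B2m at 0.89, while the proximal tubule-like share went from between 51.3% and 59.1% to between 7.74% and 10.6% and the endothelial-like share from between 5.49% and 7.21% to between 22.9% and 27.5%. B2m rose by 0.60 in macrophage-like cells, and H2-K1 by 0.80 and H2-D1 by 0.62 in ascending loop-like cells. Cluster 10 held 57.6% of the fresh macrophage-like barcodes and 95.9% of the cryopreserved ones. Cluster 4 held 62% of the fresh ascending loop-like barcodes and 85.4% of the cryopreserved ones, and the part of these shifts was not tested. The remaining 6 calls were the 6 members in proximal tubule-like cells, from 1.21 for Tapbp to 2.81 for Tap1, the last from 14, 10 and 1 UMIs cryopreserved and 12, 30 and 16 fresh. Those rest on how the barcodes were grouped: 31.4% of the 379 cryopreserved proximal tubule-like barcodes lay in cluster 32, led by Gm853, Ptgds and C3, where cluster 0 was the first in fresh cells with 12.4%, and with fewer, larger clusters the values turned to −0.082 for B2m, −0.18 for H2-D1 and −0.19 for H2-K1.

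After methanol fixation the calls for the transporter, tapasin and the heavy chains were lower and those for B2m higher. In cold C57BL/6J cells 19 of 66 pairs were called, 4 higher and 15 lower, beside 22% of all pairs. Fixed and fresh libraries with the same number in their barcode names deviated together. With that number as a replicate block 28 pairs were called, the same 19 and 9 more, beside 29.3% of all pairs in that fit. Without the block the number fell to 10 with DESeq2 and to 9 to 18 with 1 library left out, 9 without fixed replicate 2, 10 without fresh replicate 2 and 12 without fixed replicate 3. Over all barcodes Tap1 fell by 1.55 (edgeR adjusted p = 0.001233), Tap2 by 0.86, Tapbp by 0.50, H2-K1 by 0.46 and H2-D1 by 0.46 on the log2 scale, and B2m differed by 0.19, under the threshold. From fresh to fixed libraries the macrophage-like share went from between 5.09% and 5.69% to between 3.02% and 3.69%, the endothelial-like share from between 5.05% and 8.13% to between 3.98% and 5.5%, and the proximal tubule-like share from between 58.9% and 70.2% to between 69.1% and 75.8%, and their part in the values over all barcodes was not tested. In macrophage-like cells, where Tap1 rested on 1, 5 and 6 UMIs fixed and 21, 23 and 22 fresh, Tap1 fell by 1.76, Tap2 by 1.28, Tapbp by 1.17, H2-K1 by 0.65 and H2-D1 by 0.62. In endothelial-like cells Tap2 fell by 1.02, Tapbp by 0.92 and Tap1 by 1.05 (edgeR adjusted p = 0.04606), and the Tap1 call held in 4 of its 12 other settings. H2-K1 also fell by 0.81 in ascending loop-like and by 0.77 in dendritic-like cells.

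The 9 pairs called only with the replicate block were mostly of the heavy chains. H2-D1 was lower in that fit in T cell-like (−0.55), podocyte-like (−0.45), dendritic-like (−0.44) and endothelial-like cells (−0.34, edgeR adjusted p = 0.03061, against 0.3077 without the block), and higher in proximal tubule-like cells (0.44, edgeR adjusted p = 0.003464, against 0.1352). H2-K1 was lower in T cell-like (−0.59) and endothelial-like cells (−0.47), Tapbp was lower in T cell-like cells (−1.37), and B2m was higher in dendritic-like cells (0.45). Among these 9 pairs H2-D1 was thus lower in 4 classes and higher in proximal tubule-like cells.

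All 4 rises without the block were of B2m, in classes with low fresh levels: distal convoluted tubule-like (1.39, edgeR adjusted p = 0.0007457), mural-like (1.07), intercalated-like (1.05) and proximal tubule-like cells. In the last, B2m was 423, 373 and 328 CPM against 292, 197 and 170 CPM fresh, with no overlap (0.83, edgeR adjusted p = 0.004489). The clusters holding most of a class differed for endothelial-like cells (cluster 12, with 41.4% of the fresh barcodes, and cluster 10, with 73.9% of the fixed ones), for ascending loop-like cells (cluster 22, with 63.8%, and cluster 15, with 59.2%), for macrophage-like cells (cluster 8, with 51.7%, and cluster 16, with 52.4%) and for proximal tubule-like cells (cluster 7, with 16.3%, and cluster 1, with 17.2%), and their part in these values was not tested. In warm cells 3 of 38 pairs were called, all lower, beside 12.6% of all pairs: H2-K1 fell by 0.47 and Tap2 by 0.81 over all barcodes, and Tap2 by 1.48 in endothelial-like cells (edgeR adjusted p = 0.01725), where cluster 12 held 60.1% of the fresh barcodes and cluster 10 held 78.6% of the fixed ones. In the warm libraries the endothelial-like share went from between 4.31% and 4.77% fresh to between 1.79% and 3.77% fixed, the macrophage-like share from between 4.44% and 5.32% to between 2.48% and 2.99%, and the proximal tubule-like share from between 70.6% and 73.8% to between 77.2% and 80.9%, and their part in the values over all barcodes was not tested. With the block, B2m in warm proximal tubule-like cells was also called (0.40, edgeR adjusted p = 0.001211, against 0.0504 without it), beside 14.7% of all pairs. Warm fixed replicate 3, the smallest library with 782 barcodes, held no Tap1 UMI. None of 45 tests of the difference between the warm and the cold response was called by edgeR, where 0.00255% of all gene and class pairs were called, and 6 had an unadjusted p below 0.05, a share not given for all pairs. These tests were run without the replicate block, so the tie between libraries with the same number in their barcode names was not used.

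Fresh cold cells of Balb/c males and C57BL/6J males were compared at matched dissociation and chemistry. C57BL/6J carries the H2b haplotype and Balb/c the H2d haplotype, which has the further heavy chain gene H2-L, and all reads were aligned to the C57BL/6J reference, so a difference in H2-K1 or H2-D1 can lie in alignment, which was not tested. B2m in endothelial-like cells was 1993, 2270 and 1289 CPM in Balb/c against 5304, 3232 and 3417 CPM in C57BL/6J (log2 −1.16, edgeR adjusted p = 0.01089). H2-K1 went the other way, at 3380, 2815 and 2292 CPM against 1315, 1172 and 1124 CPM (1.17, edgeR adjusted p = 0.002332). H2-D1, at 5542, 5062 and 2722 CPM, overlapped C57BL/6J (0.00, edgeR adjusted p = 0.9955). The groups were thus apart without overlap in B2m and in H2-K1 of endothelial-like cells, in opposite directions. They also differed in mouse line, litter, age, time of the experiment and UMIs per barcode, which cannot be told apart from strain. How many of all genes were apart without overlap was not counted.

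In this comparison 10 of 59 pairs of member and class were called, 5 higher and 5 lower, beside 10.1% of all gene and class pairs. B2m was also lower over all barcodes (−1.22, edgeR adjusted p = 0.007471) and in monocyte-like cells (−0.94), and in 11 of 14 classes by fitted value. H2-K1 was also higher in B cell-like (1.16), macrophage-like (0.95, edgeR adjusted p = 0.03088) and monocyte-like cells (0.88), and in 12 of 15 classes by fitted value. Tap1 (−1.10) and Tap2 (−0.75) were lower over all barcodes, and H2-D1 was higher in mural-like cells (1.92). The macrophage-like share was 5.09% to 5.69% in C57BL/6J and 1.03% to 3.65% in Balb/c male libraries and the proximal tubule-like share 58.9% to 70.2% and 49.5% to 56.2%, and their part in the 3 values over all barcodes was not tested. Without 1 of the 6 libraries the number of calls was 3 to 9, and it was 3 without C57BL/6J replicate 2, 4 without Balb/c replicate 2 and 5 without Balb/c replicate 1. Balb/c female endothelial-like cells, with other chemistry and sex, held 2217, 2332 and 2243 CPM of B2m and 5157, 5800 and 5547 CPM of H2-D1. Female proximal tubule-like cells went the other way for B2m, with all libraries above those of C57BL/6J given earlier.

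Nuclei, which hold newly made transcripts and little cytoplasmic RNA, were compared with cells of the same experiment. The study counted reads in exons for cells and reads in exons and introns for nuclei, which enters every value of nuclei against cells and their CPM denominators, and its part cannot be told apart from that of the preparation. In Balb/c females all 63 tested pairs had lower fitted values in sorted nuclei and 61 of them were called, beside 81.5% of all gene and class pairs called. B2m in endothelial-like nuclei was 349, 542 and 350 CPM against 2217, 2332 and 2243 CPM in cells (log2 −2.63), and in macrophage-like nuclei it was lower by 4.90. Proximal tubule-like nuclei were lower by 4.31 for B2m, 3.51 for H2-K1 and 3.34 for H2-D1, and over all barcodes B2m was lower by 3.70 where the median gene differed by 0.10. B2m thus had the largest difference of the 3 chains in the proximal tubule-like class. Tap1 had the smallest fitted differences of the 6 in these classes, −0.69 in endothelial-like nuclei and −0.66, under the threshold, in proximal tubule-like nuclei, where its CPM was 2.33 in cells and 2.58 in nuclei, so that the sign there comes from the scaling of the fit. Endothelial-like nuclei of the other preparations averaged 705 CPM of B2m after 1 wash at 2000 g and 688 CPM after a sucrose gradient, against 414 CPM in the first.

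In Balb/c males 22 of 43 pairs were called, 3 higher and 19 lower, beside 75.9% of all pairs. The 3 higher ones were H2-D1 in connecting tubule-like (1.05) and ascending loop-like nuclei (0.91) and Tap2 in ascending loop-like nuclei (2.03), the last against 0, 1 and 1 Tap2 UMIs in the cells. B2m was 1368, 621 and 685 CPM in endothelial-like nuclei against 1993, 2270 and 1289 CPM in cells (−0.77), with overlap between replicate 1 of the nuclei and replicate 3 of the cells. H2-K1 and H2-D1 were lower in the same class by 1.21 and 1.16. In proximal tubule-like nuclei B2m was lower by 1.59 and H2-K1 by 0.83, and H2-D1 differed by −0.04, under the threshold. The median gene stood higher in nuclei by 0.78 in the proximal tubule-like and 0.71 in the endothelial-like class of this experiment. The difference between nuclei and cells was itself compared between experiments, and the female minus male value was called in 32 of 49 tested pairs, all negative, among them B2m in proximal tubule-like (−2.79) and endothelial-like cells (−1.83) and H2-D1 in proximal tubule-like cells (−3.37). In this test 25.7% of all gene and class pairs were called, and over all barcodes the median gene stood at −0.75. In the like test of cryopreservation, Balb/c females minus cold C57BL/6J, only B2m over all barcodes was called of 60 pairs (−1.12), beside 4.54% of all pairs. Cells were stored for 6 weeks in the C57BL/6J and 2 weeks in the Balb/c female experiment, and the spin after thawing differed. In the nuclei test, sex, chemistry, age and time of the experiment cannot be told apart.

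**Figure D5:**
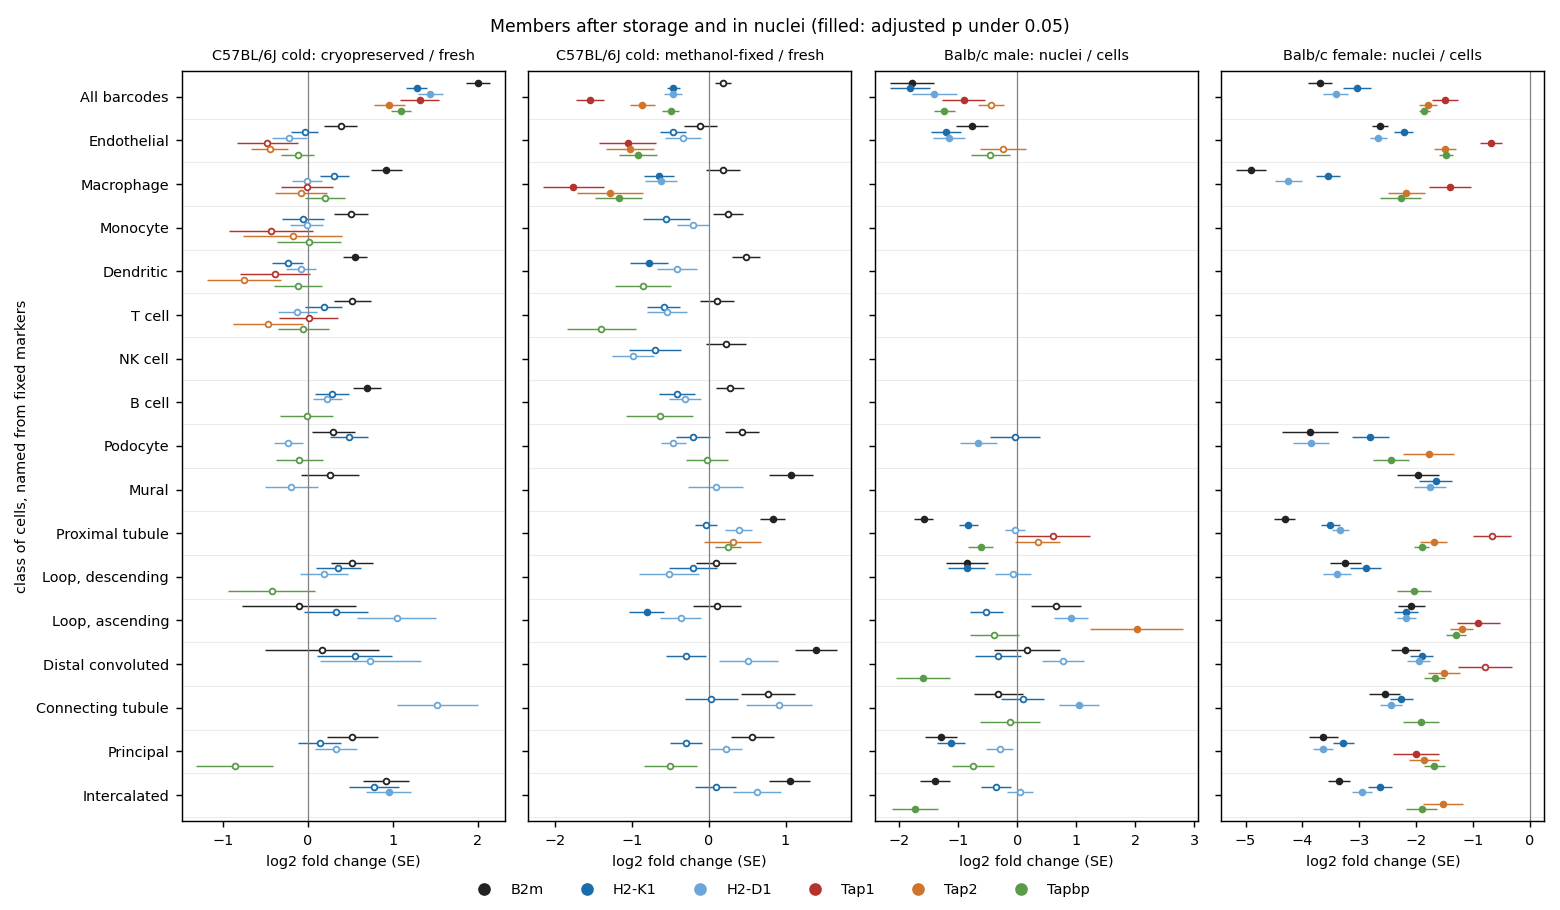
Log2 differences of stored cells from fresh cells and of nuclei from cells for the 6 genes over all barcodes and in named classes, with bars of 1 SE and filled points where the adjusted p was under 0.05. In cold C57BL/6J cells B2m over all barcodes rises by 2.00 after cryopreservation while endothelial-like cells stay near 0.38, and female nuclei lie below cells for each gene.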

How the data were processed

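Per the labels and the study's methods, the authors aligned bulk reads with STAR 2.6.1a and counted them per gene with featureCounts, and made 10x UMI counts with Cell Ranger 2.1.1, on GRCm38, counting exonic reads for cells but also intronic reads for nuclei; the deposited values are raw counts per gene, and per gene and barcode. Bulk libraries were made by rRNA depletion, except for poly(A) selection in the Balb/c female ones. Mitochondrial genes were listed in some 10x groups only and were left out of the denominators of the 10x CPM levels. In the 10x fits they were not removed where all libraries compared listed them, and so entered the library totals there.

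Barcodes of the deposited matrices were clustered in 5 sets with scanpy 1.11.5 in Python 3.11.15 (2000 variable genes, 30 principal components, 20 neighbours, Leiden resolution 2). The members, other class I and II genes, interferon, stress and sex genes were kept out. A cluster was named from at least 3 fixed markers at a fold of 1.5 or more. Doublets were scored against simulated ones, 0.8% per 1000 barcodes were marked, and marked barcodes were kept in the main values. Names were rebuilt here and can differ from the study's.

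UMIs were summed per library and class with at least 10 barcodes, in at least 2 libraries of a group, and fitted with edgeR 4.0.16 in R 4.3.3 (TMM, filterByExpr, quasi-likelihood F test, Benjamini-Hochberg adjustment over all genes of the class, threshold 0.05). Bulk counts were fitted the same way. Each class was set against proximal tubule-like cells with library as a block. The scripts were tested on simulated data. DESeq2 1.42.0, edgeR's exact test, RLE scaling, no filter on low counts, removal of marked doublets, Leiden resolution 1 and leaving out each library were alternatives. The p-values of comparisons between groups measure the spread between kidneys of different mice, taken as unpaired except with the replicate block. Those of classes against proximal tubule-like cells measure the spread of class differences over the same 3 libraries, pooled over the classes. Genes named outside the members are up to 3 called genes per fixed list with the largest change in size, in each bulk comparison and in endothelial-like cells of the warm and cold comparison, and the 5 genes most like the members' mean standardized log2(CPM + 10) pattern over C57BL/6J classes of at least 50 barcodes, among genes of mean CPM of at least 50.

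A number in the barcode names ties C57BL/6J libraries of different groups. The labels do not say whether it stands for a kidney or a mouse. By the study's methods a kidney went through 1 dissociation protocol, so warm and cold libraries with the same number are not from the same kidney. Correlations of deviations for the 3 numbers were 0.39, 0.459 and 0.548 for cold methanol-fixed with fresh libraries and 0.283, 0.478 and 0.298 for warm ones, and under 0.1 for at least 1 number in the other comparisons. A replicate block by this number was an alternative chosen after seeing the data. The members and lists were chosen with earlier results of these data known. Levels from few UMIs carry large counting error.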

Additional observations from a re-analysis of the deposited data

Results flagged for a closer look

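Every value here was picked out because a test of the difference between the responses of 2 experiments was called (edgeR quasi-likelihood test of an interaction, adjusted over all genes of the class). All are log2 values.

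For cryopreserved against fresh cells, the response of B2m over all barcodes was 1.12 smaller in Balb/c females than in cold C57BL/6J cells (−1.12), where strain, sex, chemistry, age, time, length of storage (6 weeks in C57BL/6J, 2 weeks in Balb/c females) and the spin after thawing cannot be told apart.

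For nuclei against cells, Balb/c females minus Balb/c males, B2m gave −2.02 over all barcodes, −2.79 in proximal tubule-like, −2.29 in ascending loop-like, −2.08 in intercalated-like, −2.01 in principal cell-like, −1.88 in distal convoluted tubule-like, −1.83 in endothelial-like and −1.71 in connecting tubule-like cells. H2-D1 gave −2.13 over all barcodes, −3.37 in proximal tubule-like, −3.11 in intercalated-like, −3.02 in principal cell-like, −2.99 in connecting tubule-like, −2.63 in ascending loop-like, −2.27 in distal convoluted tubule-like, −2.14 in descending loop-like, −1.85 in podocyte-like and −1.46 in endothelial-like cells. H2-K1 gave −1.34 over all barcodes, −2.75 in proximal tubule-like, −2.39 in intercalated-like, −1.84 in principal cell-like, −1.83 in connecting tubule-like, −1.19 in ascending loop-like and −0.96 in endothelial-like cells. Tap2 gave −1.47 over all barcodes, −3.63 in distal convoluted tubule-like, −2.79 in ascending loop-like and −2.10 in proximal tubule-like cells. The Tap2 values in distal convoluted tubule-like and ascending loop-like cells rest on 1, 0 and 0 and on 0, 1 and 1 UMIs in the 3 libraries of male cells. Tapbp gave −0.74 over all barcodes, −1.35 in proximal tubule-like and −0.97 in endothelial-like cells. The median gene over all barcodes stood at −0.75 in the same test. All of these libraries were Balb/c, and sex, chemistry, age and time cannot be told apart in them.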

How the results depend on the processing

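The check by pair covered 377 pairs of member, class and comparison, namely those called in the main fit and all bulk pairs. Of these, 365 kept their direction and side of the threshold with RLE scaling. The number was 356 with no filter on low counts and 348 with DESeq2. It was 332 of 346 at Leiden resolution 1 and 352 of 364 with marked doublets removed. The 10x pairs not called in the main fit were not followed by pair, so calls gained among them show only in the numbers of calls below. The 6 rises over all barcodes after cryopreservation of cold cells held in all 12 other settings. For warm against cold cells the number of called pairs was 3 with DESeq2, 2 with doublets removed and 2 with the replicate block (chosen after seeing the data), and 1 to 7 with a library left out. After cold methanol fixation it was 10 with DESeq2 and 9 to 18 with a library left out, the lowest 2 values, 9 and 10, without fixed replicate 2 and without fresh replicate 2. After warm methanol fixation it was 7 with DESeq2, 6 with RLE scaling and 1 to 4 with a library left out, the 1 without fresh replicate 3. The replicate block kept 45 of 46 called pairs and added 9 after cold methanol fixation, 2 after cold cryopreservation and 1 in each of the other 3 C57BL/6J comparisons. After cryopreservation of Balb/c female cells it was 9 at resolution 1, where 3 values in proximal tubule-like cells reversed, to −0.082 for B2m, −0.18 for H2-D1 and −0.19 for H2-K1. For the strains it was 6 with no filter and 3 to 9 with a library left out. In bulk, leaving out a library gave 0 calls for warm against cold and 0 to 1 for suspension against intact kidney. In male nuclei, H2-D1 in podocyte-like cells reversed to 0.26 with doublets removed. The cause of these changes was not tested, and the share of all gene and class pairs called is given only for the main fits and the replicate block. Left-out fits gave 7 to 11 calls for cold and 10 to 13 for warm cryopreservation, 13 to 17 in females, 15 to 23 for male and 60 to 64 for female nuclei, and 56 to 66, 37 to 45 and 59 to 65 for classes against proximal tubule in C57BL/6J, Balb/c male and Balb/c female cells. Depth limits Tap1, with 5 to 11 UMIs per library in fresh cold C57BL/6J proximal tubule-like cells and 1 to 3 in Balb/c male ones.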
